A study of Mus musculus with 2 samples.

Results

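Cells that carried transcripts of Vcan and Ccr2 were followed through mouse bone marrow cultures grown with GM-CSF, with and without heme. Members were chosen by raw counts of unique molecular identifiers (UMIs, each standing for 1 captured transcript). A member had 2 or more Vcan UMIs and 1 or more Ccr2 UMIs, at most 1 Arg1 UMI, at most 1 C1qb UMI, at most 2 Marco UMIs, and S100a8 at under 3% of its gene UMIs. It also had a hashtag of day 3, 4, 5 or 7, 500 or more detected genes and under 15% mitochondrial UMIs. Of 31339 barcodes in all, 21748 were cells of these days that passed the last limits, called kept cells below, and 3767 of them were members. The control library held 1335 members and the heme library 2432. The genes of the rule chose the members, so their levels and the share of members are descriptions without a test.

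Bone marrow progenitors of C57BL/6 mice, labelled as 8 to 10 weeks old, had been depleted of lineage-positive cells and grown with 20 ng/ml recombinant mouse GM-CSF in every group. On day 3 the heme group received 300 µM heme bound to albumin and the control group received albumin alone. Each group was 1 library made with a droplet method that counts 3′ ends, and in each library 5 cultures had been marked with antibody-bound hashtags named for days 0, 3, 4, 5 and 7, stained and pooled. The day 3 cells were labelled as unexposed, but they were pooled with the exposed cells of their library before droplets were made, so the day 3 differences between libraries are given beside the later ones and are not a clean baseline. The labels give harvests on days 4, 5 and 7, the design text gives exposure times in hours that match days 4 and 7 but not day 5, and culture days are used here. The general animal section of the study gives an older age range than the labels. It is not stated whether the day 3 cells of the libraries came from separate cultures, and the study outlines staggered starts. With 1 library per group and 1 hashtag per library and day there were no replicates, so no p-value is given, and library and treatment cannot be told apart. Every interval is at the 95% level and covers counting error only. Intervals of shares and ratios are exact, and those of differences between shares are approximate.

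Classical monocytes leave the bone marrow through CCR2, the receptor for the chemokine CCL2, and can become macrophages or dendritic cells in tissue. Versican, encoded by Vcan, is a large chondroitin sulfate proteoglycan that monocytes secrete into the matrix, and KLF4 is a transcription factor needed for monocyte development. GM-CSF supports proliferation and differentiation of myeloid progenitors, and heme both releases iron when it is broken down and induces oxidant defence genes through the transcription factor NRF2.

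In the GRCm38 annotation Vcan lies at chr13:89655312-89742509 on the minus strand, Ccr2 at chr9:124101950-124113557 on the plus strand, Klf4 at chr4:55527143-55532466 on the minus strand and Ear2 at chr14:44102654-44103534 on the plus strand. Levels are given as CPM, the UMIs of a gene summed over the members of a culture for every 1000000 gene UMIs of those members. Lists of values follow the order of days 3, 4, 5 and 7. Vcan stood at 413, 274, 214 and 194 CPM in control and 481, 408, 281 and 313 CPM in heme. Ccr2 stood at 492, 422, 439 and 646 CPM in control and 531, 343, 260.4 and 314 CPM in heme. Vcan was thus lower on days 4 to 7 than on day 3 in both libraries, and Ccr2 was the higher in control from day 4 on. Klf4 stood at 146, 88.4, 58.6 and 69.7 CPM in control and 165, 119, 103 and 136 CPM in heme. Ear2, a ribonuclease of the eosinophil-associated family, stood at 94, 66, 22.9 and 52.1 CPM in control and 88.1, 74.6, 38.5 and 63.5 CPM in heme, and its near copies make its count uncertain. Klf4 was higher in heme on each of days 4, 5 and 7, and no ratio of Klf4 or Ear2 reached 2-fold over all members. Over the alternatives tried, the Klf4 log2 ratio of heme to control ran from 0.63 to 1.07 on day 5 and from 0.77 to 1.86 on day 7. The Ear2 log2 ratio was 0.18, 0.75 and 0.29 on days 4, 5 and 7. It turned to -0.92, -0.52 and -0.91 among members without Mki67 and Top2a UMIs. Among members under 30 Gpnmb UMIs it was 1.26 on day 5, so no direction is read for Ear2.

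The label of monocyte was checked against marker genes. Ly6c2, the classical monocyte surface antigen, was abundant at 1251, 1034, 657 and 491 CPM in control and 1369, 1413, 767 and 424 CPM in heme, but its level pooled over days 3 to 7 was close to that of the other kept cells, at 1010.5 against 829 CPM in control and 1088 against 1119 CPM in heme. Ms4a6c, a monocyte membrane protein, was at 37.8 against 20.1 CPM and 32.2 against 15.7 CPM. Csf1r, the receptor for M-CSF, was at 145 against 103 CPM and 191 against 136 CPM. Plac8 was lower in members, and Cx3cr1, the fractalkine receptor, did not exceed 15.9 CPM in any culture. Neutrophil markers were low, as 8 genes summed to 1075 to 1283 CPM in control members and 1928 to 2798 CPM in heme members. The other cells held 2269.8 to 95142 and 11973 to 85220.3 CPM. The S100a8 limit of the rule placed S100a8-high cells among the other cells, so this contrast is no check of the label. Lymphocyte, eosinophil and basophil or mast cell lists summed to at most 21.1 CPM in any culture, with Cd3e and Il5ra at or near 0. All 4 tested erythroid markers were past 2-fold higher in the heme library on day 3, against 2.59% of all genes, with sums of 22.5 CPM in control and 50.1 CPM in heme. Granulocyte progenitor transcripts were present at the start, as Elane stood at 284, 112, 29.3 and 23.0 CPM in control and 315, 65.5, 33.7 and 45.0 CPM in heme. The members were therefore a Vcan and Ccr2 positive population with mixed monocyte markers, and they are called Vcan+Ccr2+ cells here.

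The libraries differed in depth on every day, day 3 included. The median member held 18777, 20796.5, 23079 and 17836 UMIs in control and 24134.5, 25309, 29858.5 and 21619 UMIs in heme. Members with over 5000 detected genes made up 7.59% to 28.9% in control and 41.3% to 70.2% in heme. Since the rule counts raw UMIs, a deeper cell met the limits for Vcan and Ccr2 more easily and those for Arg1, C1qb and Marco less easily. The libraries shared 112 barcodes, and 27 members carried a barcode also seen in the other library. Doublets were removed only where the deposited hashtag calls had found several hashtags, so doublets within a hashtag remain.

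Members near the limits were common. Vcan was at exactly 2 UMIs in 254 control and 266 heme members, and 404 control and 330 heme cells failed only through having 1 Vcan UMI. Ccr2 was at exactly 1 UMI in 70 control and 239 heme members. Marco, a scavenger receptor of macrophages, was seen at 1 or 2 UMIs in 12 control and 550 heme members, and 199 of the latter were day 3 cells, against 2 such control members. The part of free RNA from the exposed cells in the day 3 values was not tested. On day 7 the upper limits fell on different cells in the libraries. Of 206 control cells with enough Vcan and Ccr2 UMIs, 91 were over the C1qb limit (44.2%) and 60 over the Arg1 limit (29.1%). Of 843 such heme cells, 416 were over the Marco limit (49.3%).

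The share of Vcan+Ccr2+ cells among kept cells was lower on each later day in control and stayed above the control share on days 5 and 7 in heme. In control it was 29.7% (621 of 2089 cells, 27.8 to 31.7), 15.8% (358 of 2263, 14.3 to 17.4), 10.6% (277 of 2601, 9.49 to 11.9) and 2.63% (79 of 3008, 2.08 to 3.26). In heme it was 33.4% (1118 of 3351, 31.8 to 35.0), 13.7% (410 of 2999, 12.5 to 15.0), 18.4% (490 of 2665, 16.9 to 19.9) and 14.9% (414 of 2772, 13.6 to 16.3). The heme minus control difference was 3.64 percentage points (1.07 to 6.18) on day 3, then -2.15 (-4.13 to -0.19), 7.74 (5.82 to 9.65) and 12.3 (10.9 to 13.8).

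Depth was equalised by drawing 5000 UMIs from each kept cell and applying the rule again, which left out 1471 control and 1313 heme cells with fewer UMIs. The shares were then 15.1%, 6.14%, 3.80% and 0.832% in control and 18.3%, 7.12%, 8.12% and 6.54% in heme. The day 4 difference turned to 0.978 points (-0.532 to 2.46) and the day 7 difference was 5.71 points (4.68 to 6.79). Day 7 was the only day on which heme stood above control by every way of counting tried. With the limits of the study on genes and ribosomal UMIs the day 3, 4 and 5 differences were -2.82, -6.19 and -0.741 points, and the day 7 difference was 9.27 points.

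**Figure D1:**
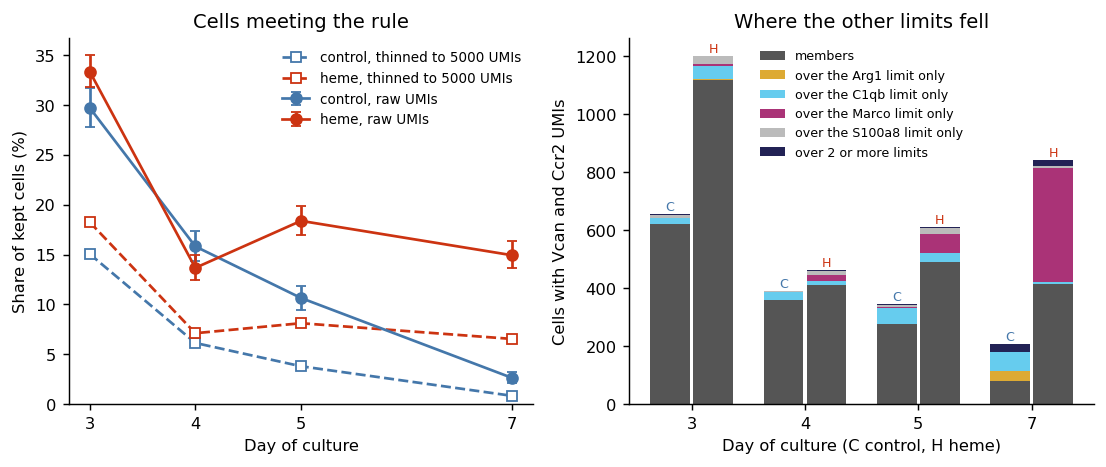
Left, share of kept cells (%) that met the rule by day of culture, with 95% exact intervals, for raw UMIs (solid) and after thinning to 5000 UMIs per cell (dashed); right, number of cells with enough Vcan and Ccr2 UMIs, split by the limit they exceeded, for control (C) and heme (H). On day 7 the control share was 2.63% and the heme share 14.9%, and 416 heme cells were over the Marco limit.

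A group of members stood apart by Gpnmb, a transmembrane glycoprotein of macrophages. The cut of 30 Gpnmb UMIs was chosen after the values were seen. Members at or above it numbered 1 of 621, 5 of 358, 4 of 277 and 0 of 79 in control and 11 of 1118, 26 of 410, 99 of 490 and 43 of 414 in heme. In the heme members they held 14.5%, 69.1%, 89.8% and 86.1% of all Gpnmb UMIs. On day 7 these 43 cells had a median of 45271 UMIs against 20461 in the other heme members, and they held Vcan at 107 against 365 CPM and Ccr2 at 73.2 against 375 CPM. The heme cells outside the rule held Vcan at 69.7 CPM and Ccr2 at 73.3 CPM over days 3 to 7. The Gpnmb-high cells of day 7 thus held Vcan and Ccr2 per UMI nearer to those pooled levels than to the other heme members. On day 7 alone, Vcan, Ccr2, Klf4 and Ear2 together summed to 373 CPM in heme cells outside the rule and 827 CPM in heme members. In the Gpnmb-high cells of that day Klf4 was at 103 CPM and Ear2 at 8.14 CPM. Without them the share difference was 4.18 points on day 5 and 10.8 points on day 7. For heme against control, some MHC class II, Ccl17 and Gpnmb values are given below with and without them.

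Vcan+Ccr2+ cells were also set beside all other kept cells. The comparison describes cells that the rule separated. Of 12562 genes tested in control 1.84% were 2-fold or more higher in members and 7.45% were 2-fold or more lower, and of 13429 in heme 1.07% and 6.28%. With both libraries weighted equally, and leaving aside the genes of the rule, the highest ratios among 4453 genes belonged to Rnd3, a small GTPase (47.6 against 15.3 CPM in control and 53.2 against 19.3 CPM in heme), Hivep3 (62.1 against 20.9 and 63.0 against 25.5 CPM), Klf4 (106 against 34.8 and 138 against 58.0 CPM) and the collagen-binding integrin Itga1 (90.3 against 36.8 and 132 against 47.0 CPM). Sulf2, Id3, Cdh1 and Mrc1 followed. Mrc1, the mannose receptor, was at 129 against 41.6 CPM in control and 199 against 109 CPM in heme. Ear2 stood at 67.1 against 32.1 CPM in control and 70.1 against 31.2 CPM in heme. The lowest ratios were those of neutrophil genes, among them Camp at 60.7 against 3482 CPM in control. Fn1 differed between the libraries, at 129.5 against 192 CPM in control and 54.0 against 10.1 CPM in heme.

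On day 7 the control cells held more antigen presentation, interferon and chemokine transcripts than on day 3 and fewer of granulocyte progenitors. Genes with 50 or more UMIs in the groups compared were tested, and a gene was called at 2-fold or more. Between day 3 and day 7, 467 of 9470 genes (4.93%) were 2-fold or more higher on day 7 in control and 533 (5.63%) were lower. In heme 725 of 11218 (6.46%) were higher and 586 (5.22%) lower. A day after heme or albumin was added, day 4 stood above day 3 by 2-fold or more for 2.43% of 9970 genes in control and 4.73% of 11224 in heme, and below it for 1.17% and 2.03%. Ccl2, Cxcl2 and Cxcl3 were among the highest in control, and Cxcl3, Spic and Hmox1 in heme. Between days 3 and 7 the median log2 ratio of all tested genes was -0.16 in control and -0.16 in heme.

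In control, 6 of 10 MHC class II genes, 13 of 18 tested interferon-stimulated genes and 11 of 15 cytokine and chemokine genes were 2-fold or more higher on day 7. In heme the same counts were 0 of 10, 1 of 22 and 5 of 16. Of all genes, 4.93% in control and 6.46% in heme were 2-fold or more higher on day 7. The top of the control list held Il4i1, an enzyme that degrades phenylalanine, at 4.22 CPM on day 3 and 200.4 CPM on day 7, and Ccl22, a chemokine of dendritic cells, at 29.1 and 952 CPM. Mucl1 was at 127 CPM on day 7 from 3 UMIs on day 3, a ratio of 529.8 (179 to 2592). That interval covers counting error only, and how these UMIs were spread over the 79 control members of day 7 was not tested. Granulocyte progenitor genes were lower on day 7 in both libraries, with 4 of 5 tested past 2-fold in control and 5 of 6 in heme. Of all genes, 5.63% and 5.22% were lower by as much. Prtn3, a serine protease of primary granules, stood at 427, 157, 53.4 and 40.6 CPM in control and 416, 98.8, 42.5 and 56.9 CPM in heme. Id3, an inhibitor of helix-loop-helix factors, stood at 77.5, 42.6, 62.7 and 7.45 CPM in control and 49.7, 7.86, 2.77 and 1.45 CPM in heme, so it was lower on day 7 than on day 3 in both libraries and lower in heme on every day, day 3 included.

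Heme against control was compared within Vcan+Ccr2+ cells on each day. On day 3, in cells labelled as unexposed, 287 of 11091 genes (2.59%) were 2-fold or more higher in the heme library and 8 (0.0721%) were lower. On day 4, 878 of 10188 (8.62%) were higher and 152 (1.49%) lower. On day 5, 897 of 10508 (8.54%) were higher and 269 (2.56%) lower. On day 7, 1121 of 9618 (11.7%) were higher and 299 (3.11%) lower. The median log2 ratio of all tested genes was 0.25, 0.26, 0.19 and 0.20, and list medians are given relative to it. Higher genes made up 97.3%, 85.2%, 76.9% and 78.9% of the calls, and 82.4%, 59.6%, 60.2% and 61.7% once each ratio was scaled by its median over genes.

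The ends of these rankings, among genes at 30 CPM or more in the higher group, changed from day to day. On day 3 the highest ratios belonged to the transcript CT010467.1 (118 against 30.7 CPM), the histone gene Hist1h3c (169 against 50.4 CPM), Egr3, Hmox1 and the neutrophil granule genes Ltf and Ngp, and the lowest to Myl12b (37.6 against 73.7 CPM), Hopx and Ubb. Histone genes have near copies, and their counts are uncertain. The Hist1h3c log2 ratio was -0.048 in place of 1.75 among members without Mki67 and Top2a UMIs. On day 4 the highest were Slc40a1, Spic, Hmox1, Treml4, Me1, Procr, which encodes the endothelial protein C receptor (103 against 9.32 CPM), Cxcl3 and Il1f9, a cytokine of the interleukin 1 family (133 against 12.9 CPM). The lowest were Tnfsf8, the ligand of CD30 (8.99 against 66.5 CPM), Ccl17, Id3, the globin gene Hbb-bs, Fn1, Asgr2, a galactose-binding lectin (18 against 85.8 CPM), and Mgl2, another such lectin (89.5 against 357 CPM). The Hbb-bs log2 ratio was 0.25 in place of -2.43 among members without Mki67 and Top2a UMIs and 0.066 with 3 or more Vcan UMIs.

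On day 5 Asgr2 (7.67 against 226 CPM), Id3 and Tnfsf8 (6.25 against 115 CPM) had the lowest ratios, followed by Fcrls, BC035044, Klk1b11, Bex6 and Slfn5. Cyp4a12a, Slc40a1, Spic, Hmox1, H2-M2, Me1, Ppbp and the glutathione transferase gene Gstm2 (67.2 against 5.50 CPM) had the highest. H2-M2 stood at 31.9 against 1.01 CPM, and its log2 ratio was -1.97 in place of 4.98 without the Gpnmb-high members. On day 7 the highest were Slc40a1, Ppbp, Me1, Hmox1, Treml4, Angptl2 (74.1 against 1.35 CPM), Emp1 (51.5 against 1.35 CPM) and Cyp4a12a, and 1 or 2 control UMIs stood behind Ppbp, Treml4, Angptl2 and Emp1. The lowest were Mucl1, Nr4a3, Il4i1, Pmepa1, Timp1, an inhibitor of matrix proteases (2.03 against 92.1 CPM), Phf11b, Ccl17 and Ccl22. Slc40a1, Hmox1 and Me1 were thus at the top on each of days 4, 5 and 7.

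Several heme handling genes were past 2-fold higher in heme members on each day. Of 16 tested heme and iron genes, 3 were 2-fold or more higher in the heme library on day 3, and 5, 8 and 8 on the later days, against a background of 2.59%, 8.62%, 8.54% and 11.7% of all genes. Tfrc alone was past 2-fold lower, on day 5, against 2.56% of all genes. The list medians relative to all genes were 0.02, 0.57, 0.86 and 0.70 on the log2 scale. Hmox1, the enzyme that breaks down heme, stood at 56.7, 90.6, 70.2 and 64.3 CPM in control and 173, 3368, 4099.7 and 4353 CPM in heme. Its heme against control ratio was 3.04 (2.81 to 3.30) on day 3, then 37.2 (34.5 to 40.1), 58.4 (53.4 to 64.0) and 67.7 (55.4 to 83.7). Heme members thus also held more Hmox1 on day 3, and each later ratio was above the day 3 ratio.

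Slc40a1, the iron exporter ferroportin, stood at 1.04, 1.13, 1.88 and 0.677 CPM in control and 9.18, 111, 158 and 263 CPM in heme. The day 7 ratio rests on 1 control UMI and was 388 (69.6 to 15329). Slc48a1, which moves heme out of lysosomes, stood at 51.0, 59.3, 78.3 and 57.5 CPM in control and 60.9, 319.5, 395 and 358 CPM in heme. Slc40a1 already stood 8.86-fold (5.10 to 16.9) higher in the heme library on day 3, and Slc48a1 was within 2-fold there. Blvrb, a biliverdin reductase, stood at 116, 209, 229 and 234 CPM in control and 101, 386, 537 and 499 CPM in heme. The ferritin heavy chain gene Fth1 stood at 10688, 15149.9, 17276 and 17183 CPM in control and 9688, 46941, 58365 and 54388 CPM in heme, and the light chain gene Ftl1 at 8837, 8338, 7348 and 7255 CPM in control and 6053, 14986, 18583 and 19109.5 CPM in heme. Ferritin genes have processed copies in the genome, so their counts are uncertain. Both were past 2-fold higher on days 5 and 7, and Fth1 on day 4 as well.

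Tfrc, the transferrin receptor for iron uptake, stood at 67.3, 81.9, 91.4 and 32.5 CPM in control and 108, 50.8, 33.0 and 36.2 CPM in heme, and it was lower in heme on days 4 and 5 with ratios of 0.621 (0.554 to 0.695) and 0.361 (0.321 to 0.405). Hmox2, the constitutive heme oxygenase, and Blvra, the other biliverdin reductase, stayed within 2-fold on every day. Bach1, a heme-binding repressor, stood at 62.4, 44.5, 33.6 and 28.4 CPM in control and 75.4, 78.1, 81.9 and 94.3 CPM in heme. Spic, a transcription factor of iron-recycling macrophages, stood at 1.04, 0.630, 0.579 and 0 CPM in control and 2.30, 57.4, 41.2 and 61.6 CPM in heme. On day 7 Spic was at 0 in control, and against a floor of 3 counts it was at least 4.92 higher on the log2 scale. Cyp4a12a, a fatty acid hydroxylase with a near copy, was at 0 in control on days 5 and 7 and at 40.0 and 72.6 CPM in heme.

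Oxidant defence genes of the NRF2 list were higher in heme members after day 3. None of 22 was past 2-fold on day 3, and 13, 14 and 14 were past 2-fold higher on days 4, 5 and 7, with none lower. Of all genes, 2.59% were past 2-fold higher and 0.0721% lower on day 3. On the later days 8.62%, 8.54% and 11.7% were higher and 1.49%, 2.56% and 3.11% lower. Relative to all genes the median was 0.00, 0.95, 1.01 and 1.25. Promoters of this list often held the core of the antioxidant response element, TGACNNNGC, read on either strand from 250 bases before to 50 bases after the start. It was in the windows of 8 of the 18 list genes with a RefSeq window, in 6 of 20 interferon list genes, and in 14.0% of 27025 genes. The 2 list genes with the highest mean level and a match before the start are shown, from RefSeq on GRCm38.p6, each as the 250 bases before the start with the match in capitals. Prdx1 lies at chr4:116685349-116685598 on the plus strand and Gclm at chr3:122245307-122245556 on the plus strand.
Prdx1: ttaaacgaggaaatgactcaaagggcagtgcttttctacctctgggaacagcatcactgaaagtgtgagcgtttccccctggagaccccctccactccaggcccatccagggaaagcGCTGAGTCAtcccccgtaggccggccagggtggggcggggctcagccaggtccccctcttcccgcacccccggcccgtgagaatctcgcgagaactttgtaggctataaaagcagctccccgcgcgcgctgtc
Gclm: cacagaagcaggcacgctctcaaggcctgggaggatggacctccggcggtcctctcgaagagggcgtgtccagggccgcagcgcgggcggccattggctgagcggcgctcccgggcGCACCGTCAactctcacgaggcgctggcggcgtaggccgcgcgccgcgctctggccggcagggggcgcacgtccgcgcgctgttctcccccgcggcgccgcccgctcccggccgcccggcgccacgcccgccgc
These matches are descriptions of the letters and do not show binding.

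Gclm, the regulatory subunit of the enzyme that starts glutathione synthesis, stood at 269, 214, 147 and 94.1 CPM in control and 267, 1028, 1121 and 1223 CPM in heme. In control it was lower on each later day, and in heme the day 7 ratio to control was 13 (11.0 to 15.5). Prdx1, a peroxidase, stood at 880.4, 1449, 1690.4 and 1380.1 CPM in control and 852, 3366, 5363 and 4446 CPM in heme. Slc7a11, which imports cystine for glutathione, stood at 44.7, 146, 127 and 106 CPM in control and 75.8, 563, 456 and 363 CPM in heme. Me1, a supplier of NADPH, stood at 2.63, 2.52, 2.32 and 0.677 CPM in control and 4.57, 35.9, 46.0 and 49.9 CPM in heme, with 1 control UMI on day 7 and a ratio of 73.7 (13.2 to 2918). Sqstm1, an autophagy receptor that also binds the NRF2 inhibitor KEAP1, stood at 48.3, 47.7, 46.9 and 56.9 CPM in control and 62.8, 205, 200.5 and 239 CPM in heme. Nqo1, Srxn1, Cat and Abcc1 were likewise past 2-fold on each of days 4, 5 and 7. Txn1, thioredoxin, had the lowest ratio of the list on days 4 to 7 and stood at 939, 1095, 1008 and 934 CPM in control and 844, 882, 887 and 829.8 CPM in heme.

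**Figure D2:**
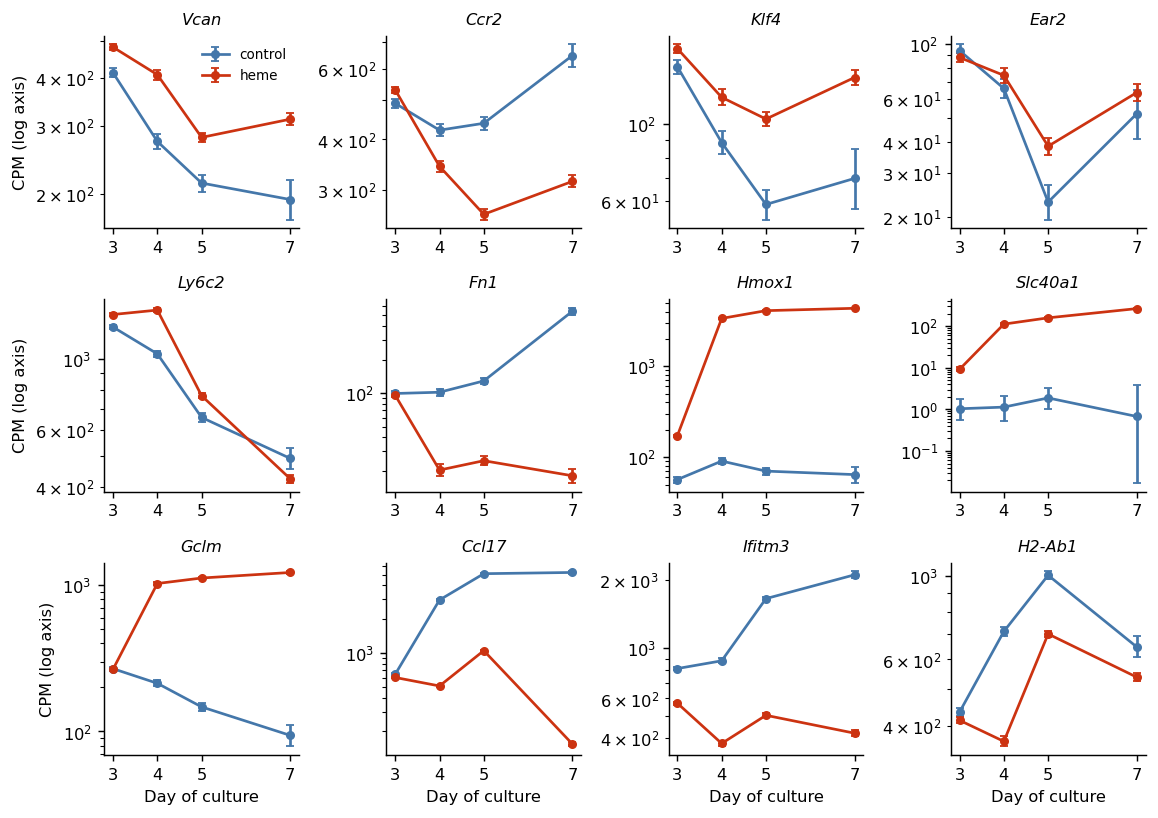
Levels of 12 genes in members by day of culture (CPM on a log axis, with exact 95% Poisson intervals), control in blue and heme in red. Hmox1 and Slc40a1 were higher in heme on every day, day 3 included, Gclm was past 2-fold higher from day 4 on, Ccl17 and Ifitm3 were lower on days 4, 5 and 7, and Vcan stayed within 2-fold.

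Interferon-stimulated genes went the other way. Of the tested genes of this list, 1 of 22 was 2-fold or more higher on day 3, against 2.59% of all genes. On days 4, 5 and 7, 5 of 21, 17 of 25 and 10 of 17 were 2-fold or more lower, against 1.49%, 2.56% and 3.11% of all genes. Rsad2, an antiviral enzyme, was the only one past 2-fold higher on day 4, and it was lower on day 5. The median relative to all genes was 0.13, -0.63, -1.57 and -1.68. In control the summed level of the 27 genes was 1034, 1229.7, 2346 and 2886 CPM, and in heme it was 816, 682, 806 and 707 CPM. Control values were higher on each later day, while heme stayed below its day 3 level. Ifitm3 made up most of the sum in every culture.

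Ifitm3, a membrane protein that restricts virus entry, stood at 813, 879.8, 1656 and 2110.5 CPM in control and 571, 379, 505 and 421 CPM in heme, a day 7 ratio of 0.200 (0.191 to 0.209). Isg15, a ubiquitin-like modifier, stood at 3.19, 15.4, 56.9 and 39.9 CPM in control and 4.14, 5.36, 7.20 and 4.92 CPM in heme. Bst2, which tethers budding virus, stood at 89.3, 127, 188 and 255 CPM in control and 78.0, 98.4, 101 and 91.2 CPM in heme, and Gbp2, a guanylate-binding protein, at 8.6, 21.3, 46.9 and 73.8 CPM in control and 14.4, 20.5, 20.1 and 13.1 CPM in heme. All 4 were higher on day 7 than on day 3 in control. Ifi204, a nucleic acid sensor, stood at 3.19, 7.81, 18.7 and 27.1 CPM in control and 5.33, 13.7, 21.2 and 22.2 CPM in heme and was within 2-fold between libraries on days 5 and 7. Of the 27 genes 22 lay below 40 CPM in each culture, so their ratios rest on fewer UMIs than that of Ifitm3. The counts were sparsest in control on day 7, where members held 1477389 UMIs in all.

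Promoter windows of 14 of the 20 interferon list genes with a RefSeq window held the core of the interferon-stimulated response element, searched as GAAA, any 2 bases and GAAA on either strand. It was in 3.99% of 27025 genes and in none of the 18 NRF2 list genes. The 2 genes with the highest mean level and a match before the start are shown in the same way. Bst2 lies at chr8:71537473-71537722 on the minus strand, with 2 overlapping matches, and Gbp2 at chr3:142620413-142620662 on the plus strand.
Bst2: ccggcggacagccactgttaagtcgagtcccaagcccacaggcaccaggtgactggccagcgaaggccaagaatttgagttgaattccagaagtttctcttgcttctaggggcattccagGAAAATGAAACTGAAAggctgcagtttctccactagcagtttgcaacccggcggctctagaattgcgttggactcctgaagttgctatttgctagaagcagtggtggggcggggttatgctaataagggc
Gbp2: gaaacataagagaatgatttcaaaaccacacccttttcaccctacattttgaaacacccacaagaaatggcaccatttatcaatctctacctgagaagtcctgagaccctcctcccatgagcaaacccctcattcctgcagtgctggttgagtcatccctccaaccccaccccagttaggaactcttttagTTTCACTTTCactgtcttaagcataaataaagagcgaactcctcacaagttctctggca

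MHC class II genes were lower in heme by smaller ratios. None, 1, 2 and 3 of 10 were 2-fold or more lower on days 3, 4, 5 and 7, and none was 2-fold or more higher. Of all genes, 0.0721%, 1.49%, 2.56% and 3.11% were 2-fold or more lower on those days. Relative to all genes the median was -0.34, -0.88, -0.68 and -0.91. H2-Ab1, a class II beta chain, stood at 436, 712, 1002 and 648 CPM in control and 414, 365, 701 and 539 CPM in heme, and Cd74, the invariant chain, at 1736, 3389, 5539.9 and 5250.5 CPM in control and 1715, 2341, 3923 and 3051 CPM in heme. H2-DMb2, which helps load peptide, stood at 40.2, 48.3, 77 and 94.8 CPM in control and 35.2, 26.6, 26.1 and 23.7 CPM in heme. The Gpnmb-high members held much of this signal in heme. Without them the H2-Ab1 log2 ratio was -1.95 in place of -0.52 on day 5 and -1.0 in place of -0.27 on day 7. For Cd74 it was -1.49 in place of -0.50 on day 5. For H2-Aa it was -1.85 in place of -0.39 on day 5 and -1.52 in place of -0.65 on day 7. The rule also bears on day 7. Of the cells with enough Vcan and Ccr2 UMIs, 91 of 206 in control and 21 of 843 in heme were over the C1qb limit. Those control cells held H2-Ab1 at 2119 CPM and Cd74 at 10700 CPM. The part of that limit in the day 7 ratios was not tested.

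Genes of dendritic cell maturation were present in control members by day 7 and nearly absent in heme members. All 4 tested mature dendritic cell markers were past 2-fold lower on day 7, against 3.11% of all genes. Ccl22 stood at 29.1, 136, 343 and 952 CPM in control and 41.6, 67.2, 60.8 and 28.3 CPM in heme, and Il4i1 at 4.22, 8.19, 30.3 and 200.4 CPM in control and 5.62, 13.4, 11.9 and 3.96 CPM in heme. Ccl17, a ligand of CCR4, stood at 645, 2966, 5087 and 5217 CPM in control and 604, 507, 1048 and 154 CPM in heme, a day 7 ratio of 0.0295 (0.0280 to 0.0312). On day 5 its log2 ratio was -2.28, and -5.87 without the Gpnmb-high members. Mucl1 was at 127 CPM in control and at 0 in heme on day 7, and Nr4a3 was at 85.3 and 1.45 CPM. The Mucl1 log2 ratio of heme to control was -8.77 on that day. Over the alternatives tried it ran from -13.0 to -1.67, so its size is uncertain. On day 4 the order differed for part of the list, since Ccr7, the lymph node homing receptor, was at 0.630 CPM in control and 12.2 CPM in heme. Among non-cycling members alone that Ccr7 log2 ratio was -0.13 in place of 4.27.

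**Figure D3:**
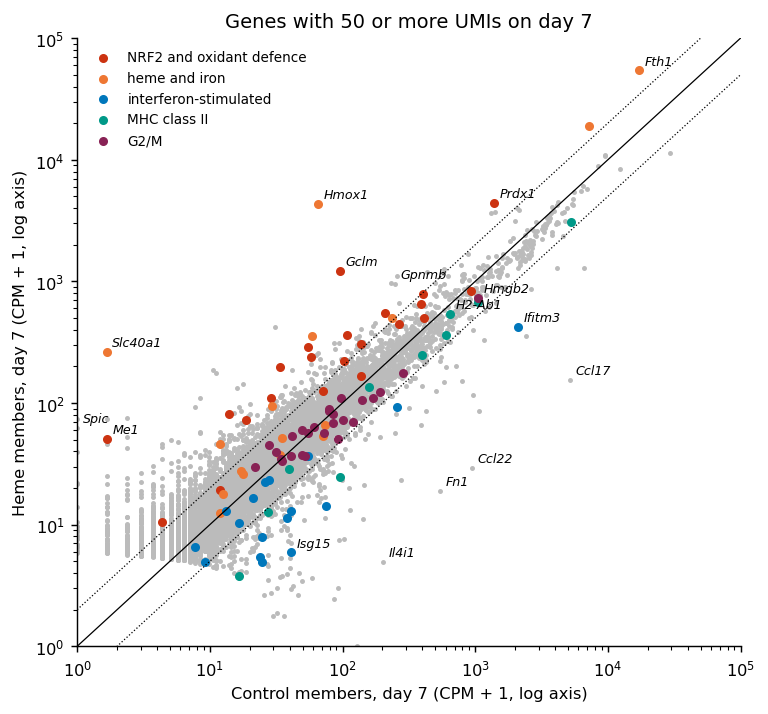
Level of each gene with 50 or more UMIs on day 7 in control members (horizontal) and heme members (vertical), both as CPM + 1 on log axes, with equality as a solid line and 2-fold as dotted lines; colours mark 5 gene lists. On this day 14 of 22 NRF2 genes and 8 of 16 heme and iron genes lie above the upper dotted line, and Ccl17, Ccl22, Il4i1 and Fn1 lie far below the lower one.

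Inflammatory chemokines and cytokines split by gene. Ccl2, the ligand of CCR2, stood at 34.0, 245, 569 and 315 CPM in control and 26.7, 87.7, 122 and 90.1 CPM in heme, and Ccl4 at 281, 969, 1128 and 719 CPM in control and 269, 672, 578 and 199.7 CPM in heme. Ccl2 was past 2-fold lower in heme on days 4, 5 and 7, and Ccl4 on day 7 alone. Cxcl2, which attracts neutrophils, stood at 29.8, 175, 145 and 145 CPM in control and 88.8, 524, 375 and 263 CPM in heme, and Cxcl3 at 5.26, 35.1, 70.2 and 124 CPM in control and 11.8, 384, 339 and 124 CPM in heme. Both were past 2-fold higher in heme on days 4 and 5, but also on day 3, by 2.98-fold (2.68 to 3.33) and 2.24-fold (1.72 to 2.96). Cxcl3 was level on day 7. Tnf stood at 64.5, 132, 105 and 46.7 CPM in control and 77, 204, 124 and 118 CPM in heme, and Tgfb1 was within 2-fold on each day. Il10 was at 0 in every culture. Over the list, 4, 2 and 2 genes were past 2-fold higher and 2, 5 and 4 lower on days 4, 5 and 7, of 17, 18 and 15 tested. The background was 8.62%, 8.54% and 11.7% of all genes higher and 1.49%, 2.56% and 3.11% lower.

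Genes of the matrix around versican differed in both directions. Fn1, fibronectin, stood at 99.1, 102, 128 and 543 CPM in control and 95.4, 20.3, 24.7 and 18.1 CPM in heme, with a ratio of 0.200 (0.172 to 0.231) on day 4 and 0.0333 (0.0282 to 0.0390) on day 7. Thbs1, thrombospondin, stood at 116, 263, 331 and 704 CPM in control and 165, 71.9, 148 and 570.5 CPM in heme. Fn1 stayed low in heme, while Thbs1 was past 2-fold lower on days 4 and 5 and within 2-fold of control on day 7. Tgfbi, an adhesion protein of the matrix, stood at 211, 178, 144 and 207 CPM in control and 252, 423, 398 and 407 CPM in heme, and Emilin2 at 252, 156, 123 and 132 CPM in control and 286, 221, 194 and 324 CPM in heme. F13a1, a transglutaminase of monocytes, stood at 16.5, 16.9, 25.2 and 29.8 CPM in control and 17.9, 19.9, 19.6 and 72.7 CPM in heme. The enzymes that build chondroitin sulfate chains had 2, 2 and 2 of 12 genes past 2-fold higher and 0, 1 and 1 lower on days 4, 5 and 7, against 8.62%, 8.54% and 11.7% of all genes higher and 1.49%, 2.56% and 3.11% lower. Chpf2, a chain polymerising factor, stood at 13.5, 17.4, 18.2 and 19.0 CPM in control and 23.4, 37.2, 48.9 and 64.2 CPM in heme, and Chst11, a sulfotransferase, at 6.77, 19.0, 24.5 and 23.0 CPM in control and 9.24, 18.3, 10.9 and 7.05 CPM in heme.

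Of 10 receptors for chemoattractants other than Ccr2, 5 were past 2-fold higher in heme on day 4 and 5 on day 5, against 8.62% and 8.54% of all genes. On day 7 it was 1 of 9, against 11.7% of all genes. Fpr1, a receptor for formylated peptides, stood at 11.0, 29.0, 19.3 and 25.7 CPM in control and 17.1, 65.0, 68.1 and 74.4 CPM in heme. C5ar1, the receptor for complement C5a, stood at 23.0, 30.4, 34.6 and 54.1 CPM in control and 24.0, 85.7, 74.5 and 82.7 CPM in heme, and Ccr1 at 125, 172, 173 and 234 CPM in control and 126, 195, 201 and 241 CPM in heme. Fpr1 was past 2-fold on each of days 4, 5 and 7 and C5ar1 on days 4 and 5. The chemokine receptor gene Ccr1 was within 2-fold on every day. Of 18 tested Fc receptor, Toll-like receptor and C-type lectin genes, 6, 7 and 4 were past 2-fold higher and 1, 1 and 2 lower on days 4, 5 and 7. The background was 8.62%, 8.54% and 11.7% of all genes higher and 1.49%, 2.56% and 3.11% lower. Clec4n, which encodes dectin-2, stood at 548, 1389, 1598 and 1323 CPM in control and 569, 2863, 3849.5 and 3617 CPM in heme, Clec4d at 48.2, 107, 102 and 84.6 CPM in control and 60.6, 301, 364 and 310.1 CPM in heme and Clec4a1 at 17.8, 13.5, 8.11 and 10.2 CPM in control and 17.3, 56.8, 52.0 and 44.9 CPM in heme. Clec12a and Clec4e were within 2-fold on every day, and Clec7a on day 7. The Fc receptor gene Fcgr1 was lower, at 31.6, 44.2, 84.3 and 69.7 CPM in control and 26, 20.0, 28.6 and 26.6 CPM in heme.

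Growth factor receptors were close between libraries. Csf2rb, the signalling chain of the GM-CSF receptor, stood at 605, 857, 915 and 787 CPM in control and 789, 1088, 1311 and 1017 CPM in heme, and Csf2ra at 108, 125, 129 and 120.5 CPM in control and 119, 152, 161 and 149 CPM in heme. Csf1r stood at 130.4, 154, 159.9 and 152 CPM in control and 158, 219, 225 and 202 CPM in heme. All 3 were within 2-fold on every day. Socs2, a feedback inhibitor, stood at 78.1, 108, 122 and 156 CPM in control and 83.2, 74.0, 91.7 and 54.8 CPM in heme and was past 2-fold lower on day 7. Csf3r, the G-CSF receptor, was past 2-fold higher in heme on each of days 4, 5 and 7, at 4.94, 6.05, 4.05 and 2.71 CPM in control and 9.83, 22.7, 17.9 and 20.5 CPM in heme. It is also a neutrophil marker, and 7 of 8, 5 of 8 and 5 of 7 tested neutrophil markers were past 2-fold higher in heme members on days 4, 5 and 7, after 2 of 8 on day 3. The background was 2.59% of all genes on day 3 and 8.62%, 8.54% and 11.7% of all genes later. On day 7, 1 was past 2-fold lower, against 3.11% of all genes. The part of neutrophil RNA in these values was not tested.

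Among 26 transcription factors of myeloid lineages most stayed within 2-fold. Irf4, a factor of dendritic cells and alternatively activated macrophages, stood at 65.1, 93.7, 76.2 and 83.3 CPM in control and 66.2, 33.9, 46.9 and 26 CPM in heme. It was past 2-fold lower in heme on days 4 and 7, with ratios of 0.361 (0.319 to 0.409) and 0.312 (0.251 to 0.389). On day 5 it was also lower but within 2-fold, at a log2 ratio of -0.70. Id2 stood at 449, 777, 763 and 737 CPM in control and 423, 379.8, 379 and 379 CPM in heme. Id2 was above its day 3 level in control while heme stayed below its own, and the ratio was past 2-fold lower on days 4 and 5. Spi1, which encodes PU.1, stood at 448, 480.0, 502 and 378 CPM in control and 409, 406, 395 and 344 CPM in heme, and Cebpb at 983, 769.6, 557 and 794 CPM in control and 662, 956, 771 and 783 CPM in heme. Irf8, needed for monocyte and dendritic cell lineages, stood at 59.8, 47.6, 52.1 and 111 CPM in control and 78.7, 74.2, 73.1 and 66.7 CPM in heme. Maf was higher in heme on every day, day 3 included, at 0.796, 2.02, 3.48 and 6.09 CPM in control and 1.94, 17.0, 17.2 and 15.9 CPM in heme. Zeb2 stood at 255, 217, 191 and 208 CPM in control and 360.5, 419, 350.5 and 384 CPM in heme. Spi1, Cebpb, Irf8 and Zeb2 were within 2-fold on every day.

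Of 5 tested macrophage markers, 3, 2 and 4 were past 2-fold higher in heme on days 4, 5 and 7, against 8.62%, 8.54% and 11.7% of all genes, and Gpnmb is 1 of them. Mrc1 stood at 165, 126, 78.2 and 67.0 CPM in control and 212, 207, 155 and 227 CPM in heme, and Adgre1, which encodes F4/80, at 55.4, 49.3, 58.9 and 60.2 CPM in control and 65.0, 110.0, 117 and 175 CPM in heme. C1qa, C1qc, Vcam1 and Apoe stayed at or below 6.77 CPM in every culture, and the C1qb limit of the rule bears on the first pair. Gpnmb stood at 65.5, 122, 171 and 247 CPM in control and 96.2, 403, 1028 and 954 CPM in heme. Without members of 30 or more Gpnmb UMIs its log2 ratio was -0.57 in place of 1.95 on day 7, whereas Hmox1 was at 5.98 in place of 6.08 and Gclm at 3.68 in place of 3.7. Of 10 lipid genes, 1, 3 and 2 were past 2-fold higher and 1 lower on each of days 4, 5 and 7. Of all genes, 8.62%, 8.54% and 11.7% were higher and 1.49%, 2.56% and 3.11% lower. Plin2, a lipid droplet coat protein, stood at 142, 154, 127 and 137 CPM in control and 147, 410.3, 404 and 403 CPM in heme. Lpl, lipoprotein lipase, stayed within 2-fold at 1489, 2221, 2555 and 2154 CPM in control and 1590.4, 3905, 3758 and 3851 CPM in heme. Abca1, the cholesterol exporter, was lower in heme at 4.14, 10.1, 15.9 and 37.2 CPM in control and 5.82, 1.04, 2.06 and 2.90 CPM in heme.

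**Figure D4:**
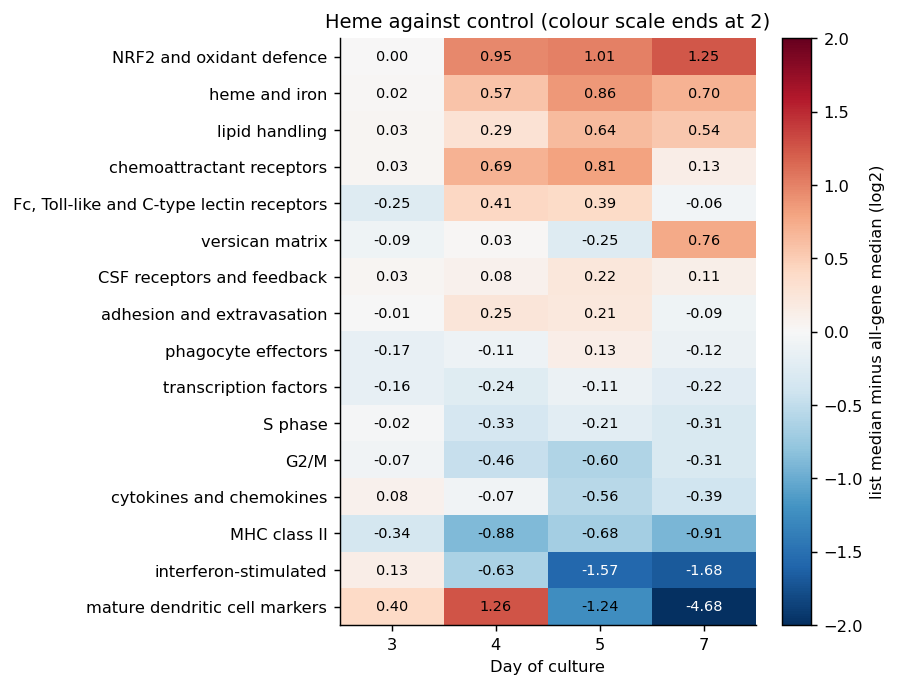
Median log2 ratio of heme to control over the tested genes of 16 lists in members, minus the median over all tested genes, by day of culture; red is higher in heme and blue lower, and the colour scale ends at 2. On day 7 the NRF2 list stood at 1.25, the interferon list at -1.68 and the 4 tested mature dendritic cell markers at -4.68.

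Cycling was read from Mki67, a proliferation antigen, and Top2a, a topoisomerase of dividing cells. A member with at least 1 UMI of either was called cycling. The share was 83.4%, 80.2%, 76.9% and 60.8% in control and 90.7%, 81.0%, 84.7% and 69.8% in heme. The heme minus control difference was 7.28 points (3.89 to 10.8), 0.808 (-4.95 to 6.63), 7.80 (1.83 to 14.0) and 9.05 (-2.72 to 21.5). After thinning to 5000 UMIs the shares were 71.6%, 64.7%, 57.8% and 46.2% in control and 78.7%, 61.7%, 56.5% and 47.1% in heme, and the difference on day 5 was -1.23 points. At equal depth the cycling share was therefore lower on each later day in both libraries, and the intervals of the differences on days 4, 5 and 7 included 0.

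Cells with S100a8 at 3% or more of UMIs and at most 1 Camp UMI served as a background that should divide little. The share of them with a Mki67 or Top2a UMI was 93.9%, 34.5%, 17.1% and 4.08% in control and 94.4%, 36.9%, 27.8% and 38.7% in heme, from 36 to 697 cells per culture. From day 4 on their median depth was 3736 to 5996 UMIs. On day 3 the share in these cells was as high as in members. However, 91.8% of them in control and 91.7% in heme held a UMI of the granulocyte progenitor gene Elane. They were thus not a background of low division on that day, and the day 3 cycling share of members has no background here. In a separate random draw, members and these cells were both thinned to 5000 UMIs. That left out shallower cells, 53 of these 124 in heme on day 7 and 287 of 468 in control on day 5. The day 7 share in heme was then 49.8% (44.8 to 54.7) in members and 40.8% (29.3 to 53.2) in these cells, so members did not stand clear of them. On days 4 and 5 the members stood above, at 65.8% and 57.4% against 36.4% and 26% in control and at 60.7% and 55.7% against 36.7% and 30.6% in heme. In control on day 7 the shares were 50% of 78 members and 0 of 12 of these cells, which allows a share of up to 26.5% by the exact interval. Summed levels do not depend on depth in the same way. The 26 G2/M genes summed to 5341, 4282, 3703 and 3120 CPM in control members and 5382, 3209, 2324 and 2432 CPM in heme members. The 22 S phase genes summed to 1964, 1740, 1510 and 1326 CPM in control and 2228, 1590, 1400 and 1199 CPM in heme. The G2/M sum was thus lower in heme members on days 4, 5 and 7. Most of that difference lay in Hmgb2 and Ube2c, which the sum counts and whose levels are given below. Single G2/M genes were mostly within 2-fold. On days 4, 5 and 7, 0, 3 and 0 of 26 were past 2-fold lower, against 1.49%, 2.56% and 3.11% of all genes. None was past 2-fold higher, against 8.62%, 8.54% and 11.7% of all genes, and 8, 2 and 11 of 26 had a ratio above 1. Mki67 stood at 256, 190.2, 149 and 113 CPM in control and 326, 213, 151 and 151 CPM in heme, and Top2a at 429.6, 328, 299 and 236 CPM in control and 563, 334, 224 and 252 CPM in heme. On day 7 both were higher in heme, while the summed level was lower. Hmgb2, a chromatin protein of dividing cells, stood at 2247, 1691, 1279 and 1046 CPM in control and 2130.4, 1058, 691 and 728 CPM in heme, and Ube2c, a mitotic ubiquitin enzyme, at 391, 367, 355 and 284 CPM in control and 340.3, 213, 151 and 175 CPM in heme.

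**Figure D5:**
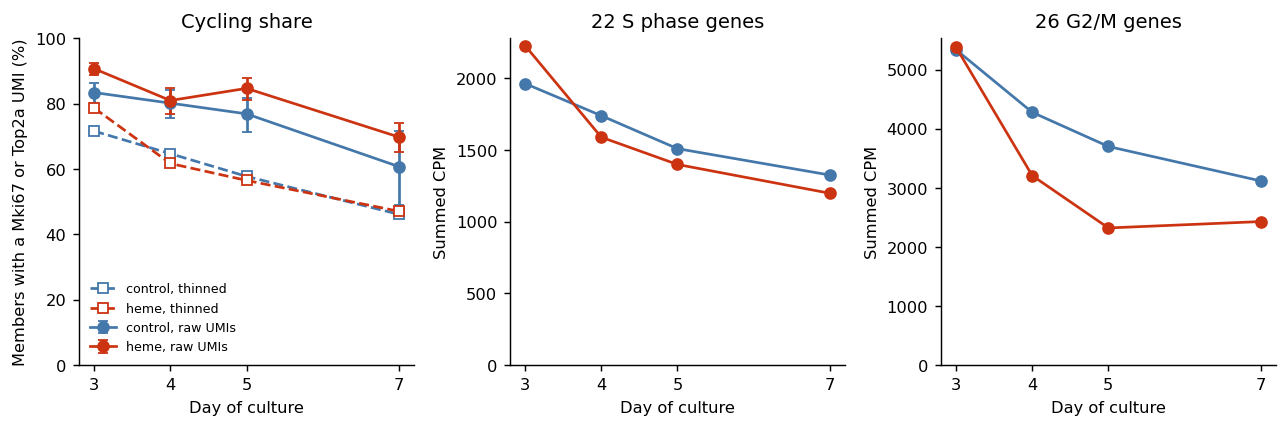
Left, share of members with a Mki67 or Top2a UMI (%), raw with 95% exact intervals (solid) and thinned to 5000 UMIs (dashed); middle and right, CPM summed over 22 S phase and 26 G2/M genes in members, by day of culture. At equal depth the shares were 46.2% and 47.1% on day 7, and the G2/M sum in heme was 2432 CPM against 3120 CPM in control. Most of that G2/M difference lay in Hmgb2 and Ube2c.

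Cycling and non-cycling members were compared within each library over all days. Of 10474 genes in control 771 (7.36%) were 2-fold or more higher in cycling members and 186 (1.78%) lower, and of 11853 in heme 946 (7.98%) and 285 (2.4%). All 26 G2/M genes were past 2-fold higher in both, which the definition favours, and 20 and 21 of 22 S phase genes. Nusap1, a spindle protein, had a ratio of 52.7 (29.4 to 106) in control and 30 (21.3 to 44.0) in heme. Non-cycling members held more of the chemokine and maturation genes. Ccl22 was at 129 CPM in cycling and 475 CPM in non-cycling control members, and Ccl17 was at 498 and 1579 CPM in heme. Cytokine and chemokine genes were past 2-fold lower in cycling members for 7 of 17 in control and 7 of 18 in heme. Klf4 and Ear2 were within 2-fold in both libraries. Granulocyte progenitor genes were higher in cycling members, with 4 of 5 and 4 of 6 past 2-fold. Days are mixed in these groups, since cycling members came more from day 3. Cycling members were also deeper, at medians of 21716 against 15064 UMIs in control and 26133.5 against 18440.5 in heme. In heme, 81.8%, 53.8%, 74.7% and 69.8% of Gpnmb-high members were cycling, against 90.8%, 82.8%, 87.2% and 69.8% of the others. The part of depth and of the Gpnmb-high members in these ratios, Ccl17 included, was not tested.

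On day 7 the members were set beside cells with enough Vcan and Ccr2 UMIs that were over an upper limit. The 416 heme cells over the Marco limit had a median of 4 Vcan and 16 Marco UMIs. Between them and the heme members, 1% and 0.918% of 10452 genes were 2-fold or more higher and lower in members. Lower in members were Cx3cr1 (15.9 against 70.6 CPM), Igf1 (33.7 against 101 CPM), Maf (15.9 against 41.5 CPM) and Clec4a1 (44.9 against 116 CPM). Higher in members were Rbp4 (38.5 against 3.14 CPM), Ppbp (73.1 against 15.2 CPM) and Cdkn2a (42.8 against 11.4 CPM), and within members Rbp4, Ppbp and Cdkn2a lay mostly in the Gpnmb-high cells. Hmox1 was at 4353 CPM in members and 5703 CPM in cells over the Marco limit, within 2-fold on either side of the limit.

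In control, the 91 cells over the C1qb limit differed from members by 1.21% of 6548 genes higher and 1.08% lower in members. H2-Ab1 was at 648 CPM in members and 2119 CPM in those cells, and Aif1 at 39.9 and 136 CPM. Ccl22 was at 952 and 327 CPM, Ccr7 at 32.5 and 8.38 CPM, and Plac8 at 45.4 and 11.5 CPM. The 60 cells over the Arg1 limit differed by 1.25% of 5901 genes higher and 2.07% lower in members. They held more Slc7a2, an arginine transporter (39.3 CPM in members against 321 CPM), and less Il4i1 (200.4 against 11.4 CPM) and Ccl17 (5217 against 1016 CPM). Ccl22 was at 952 CPM in members and 65.0 CPM in those cells. The 79 control members of day 7 thus held more Ccl22 than the cells beyond either limit, while Ccl17 was higher in the cells over the C1qb limit, at 8625 CPM.

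The same comparison in the kept cells outside the rule is set beside these values, with no test of the difference. There, the share of genes 2-fold or more higher in heme was 8.31%, 8.91%, 8.48% and 14.4%, and lower 0.197%, 1.19%, 2.97% and 6.42%. The NRF2 list stood at 0.04, 0.83, 1.06 and 1.39 relative to all genes in the other cells and at 0.00, 0.95, 1.01 and 1.25 in members. For the interferon list the values were -0.02, -0.16, -1.40 and -1.96 and 0.13, -0.63, -1.57 and -1.68. For MHC class II they were -0.46, -0.88, -0.73 and -2.14 and -0.34, -0.88, -0.68 and -0.91. The lists kept 1 direction inside and outside the rule on days 4, 5 and 7.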

How the data were processed

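Per the labels and the methods of the study, the authors mapped the libraries to GRCm38.p6, and what they deposited was a table of unnormalised UMI counts for each gene in each barcode. The submitters' processing notes name Cell Ranger 4.0.0, Seurat 3.2.3 and Scanpy 1.6.0, while the header of the matrices names Cell Ranger 5.0.0. Hashtag calls were the deposited ones, made by the authors with Seurat. Counts of the mapped genes only entered the totals.

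Kept cells, members and counts per culture are defined in the report. UMIs were summed over the members of each culture. Ratios of CPM carry exact Poisson intervals and shares carry Clopper-Pearson intervals, both at the 95% level. Differences of shares carry approximate intervals of the same level, which add the half-widths of both exact intervals in quadrature. Genes with 50 or more UMIs in both groups together were called at 2-fold or more. A gene at 0 in 1 group was set against a floor of 3 counts. With 1 library per group no test was possible, the depth of 1477389 to 30403882 UMIs per culture bounds counting error only, and 79 control members stand behind day 7. The ratio code was tested on simulated data. Thinning drew 5000 UMIs per cell with fixed seeds. The cycling shares set beside S100a8-high cells came from a separate draw, so they differ slightly from the other thinned shares.

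Members, gene lists and thresholds were chosen with earlier results of these data known. Named genes were the genes of the rule, the ends of each ranking at 30 CPM or more without ribosomal and mitochondrial genes, and list members. Alternatives changed the limits of the rule, the filters, the depth, the scaling and the minimum count. Day 0 cells, and barcodes with several or no hashtags, were left out of the comparisons. Values of a few single genes are not reported here. The computations used Python 3.11.15, numpy 2.4.6, pandas 2.3.3, scipy 1.17.1 and matplotlib 3.10.9.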

Additional observations from a re-analysis of the deposited data

Results flagged for a closer look

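The difference in the share of Vcan+Ccr2+ cells between heme and control changed sign across days, being -2.15, 7.74 and 12.3 percentage points on days 4, 5 and 7. The difference between days was not tested, since each group was 1 library.

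A few genes lay past 2-fold in opposite directions on different days of exposure, and none of these differences between days was tested. The log2 ratio of heme to control for Ccr7 was 4.27 on day 4, 1.22 on day 5 and -3.59 on day 7. For Cd83, a surface protein of mature dendritic cells, it was 1.52, -1.05 and -3.89 on the same days. For Rsad2 it was 1.56 on day 4 and -3.31 on day 5. For Il1a, an interleukin 1 gene, it was 1.11 on day 4 and -1.44 on day 7. For the globin gene Hba-a1 it was -1.97 on day 4 and 1.32 on day 5. Among members without Mki67 and Top2a UMIs the day 4 value was -0.13 for Ccr7 and 1.36 for Hba-a1.

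Barcodes outside the comparisons also met the rule. Among barcodes with several hashtags, 14.9% of 1244 did so in control and 24.3% of 1951 in heme, with median depths of 30539 and 44097 UMIs. Among heme barcodes with no hashtag 1.1% of 907 did so. With the day 0 hashtag it was 0 of 1646 barcodes in control, which allows a share of up to 0.224%, and 3 of 1827 in heme.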

How the results depend on the processing

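No paired analysis was possible because each group was 1 library, so the effect of leaving out a replicate was not run. The cause of each shift below was not tested. The higher share of Vcan+Ccr2+ cells in heme on day 7 held under every alternative tried, and the shares on the other days did not.

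Heme minus control in percentage points, with at most 5000 genes and under 30% ribosomal UMIs per cell, the difference in share was -2.82, -6.19, -0.741 and 9.27 on days 3, 4, 5 and 7. After thinning it was 0.978, 4.32 and 5.71 on days 4, 5 and 7. With Arg1, C1qb and Marco at 0 it was -1.35, 3.62 and 8.04 on days 3, 5 and 7. With 3 or more Vcan UMIs it was -0.023 on day 4 and 10.6 on day 7, and with 1 or more it was -4.90 on day 4. Among alternatives chosen after seeing the data, it was 9.66 and 23.6 on days 5 and 7 with no limit on Arg1, C1qb, Marco and S100a8, and 4.18 and 10.8 for members under 30 Gpnmb UMIs. The difference in cycling share was -1.23 on day 5 after thinning, and 1.16, -6.78 and -2.93 on days 3, 4 and 7 with the limits of the study on genes and ribosomal UMIs.

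Counts of genes at 2-fold or more, higher before lower, were 136 and 29 on day 3 and 489 and 332 on day 4 when scaled by the median ratio, with 417 lower on day 5 and 490 lower on day 7. At 20 or more UMIs they were 542 and 34 on day 3, with 472 lower on day 7. At 200 or more they were 80 and 3, 457 and 90, 512 and 142, and 574 and 131 on days 3, 4, 5 and 7. Among non-cycling members they were 166 and 16 on day 3, 572 higher on day 4, and 516 and 164 on day 5. With the limits of the study 16 were lower on day 3. For cycling against non-cycling members, 76 were lower in control and 160 in heme at 200 or more UMIs. In heme 431 were lower with 3 or more UMIs against 0, and 577 were higher and 138 lower with the limits of the study.

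Of 117 ratios past 2-fold, each for a named gene on 1 day, 112 to 117 kept their direction under each alternative. Between 104 and 117 stayed past 2-fold. Many of these genes were named for lying at the ends of the rankings, and some count on several days, which favours a kept direction. Among non-cycling members the log2 ratio turned for Hist1h3b (-0.27) and Hist1h3c (-0.048) on day 3 and for Ccr7 (-0.13), Hba-a1 (1.36) and Hbb-bs (0.25) on day 4. Hbb-bs was at 0.066 with 3 or more Vcan UMIs. H2-M2 was at -1.97 on day 5 for members under 30 Gpnmb UMIs. Gpnmb on day 7 was at -0.57 for those members and at -0.14 with the limits of the study.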

Other observations

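The heme members with 30 or more Gpnmb UMIs, a cut chosen after the values were seen, carried a distinct set of transcripts on day 7. Against the other heme members they held Rbp4, a retinol carrier, at 188 against 0.847 CPM, Cdkn2a, a cell cycle inhibitor, at 193 against 4.84 CPM, and Cyp1b1 at 200 against 1.81 CPM. Cd36, a scavenger receptor for lipids, was at 1034 against 50.1 CPM, Mfge8, which bridges phagocytes to apoptotic cells, at 924 against 53.0 CPM, and Atp6v0d2, a subunit of the vacuolar proton pump, at 317 against 21.5 CPM. Mt3, a metallothionein, was at 751 against 28.4 CPM. Mki67 was at 19.6 against 185 CPM, Ly6c2 at 79.0 against 512 CPM and Thbs1 at 45.5 against 703 CPM. Hmox1 (5559 against 4048 CPM) and Gclm (1302 against 1203 CPM) were close on either side of the cut. Kept cells outside the rule also reached 30 Gpnmb UMIs, in 0.367%, 1.16% and 2.25% of control and 4.75%, 13.3% and 13.4% of heme cells on days 4, 5 and 7.

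Values of 3 other lists between heme and control were as follows, beside 8.62%, 8.54% and 11.7% of all genes past 2-fold higher and 1.49%, 2.56% and 3.11% past 2-fold lower on days 4, 5 and 7. Of 13 tested phagocyte effector genes, among them lysosomal cathepsins and NADPH oxidase subunits, none was past 2-fold on any of days 3, 4, 5 and 7. Of 12 adhesion genes, 2 were past 2-fold higher on each of days 4, 5 and 7 and 1 lower on day 7. Of 5 arginine metabolism genes, 1 was past 2-fold higher on each of those days and 1 lower on day 5.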
